A study of Mus musculus with 4 samples.

Results

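The cytokines that signal through gp130, their receptor chains and the SOCS inhibitors were examined in mouse BV-2 cells treated with LPS and in control cells. The 9 genes were Il6, Osm and Lif (cytokines), Il6ra and Il6st (receptor chains), Jak2 (a kinase), and Socs1, Socs3 and Cish (inhibitors), out of 23779 genes with a record in the deposited table. They were picked by name, as members of one signalling pathway, with earlier results of these data known. Each gene was represented by its most abundant RefSeq transcript record. BV-2 is an immortalised microglial line of mouse, used as a model of brain macrophages. Lipopolysaccharide (LPS), the outer membrane lipid of Gram-negative bacteria that activates TLR4, was given at 10 ng/ml for 4 h to the 2 LPS samples, and the 2 control samples are titled with the same 4 h. No vehicle or genetic change is named for either group. RNA was depleted of ribosomal RNA and sequenced, and the values are read counts per record. All samples come from 1 line, and the labels leave unsaid whether replicates were grown separately, so the p-values given here cover only the spread among these 4 libraries, possibly a technical one. The growth protocol mentions mixed glia shaken off flasks, although each sample is labelled as the cell line.

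Interleukin-6 binds its receptor chain, encoded by Il6ra, and the pair recruits gp130, encoded by Il6st, which is shared by the whole cytokine family. Oncostatin M and leukaemia inhibitory factor use gp130 together with other chains. Kinases of the JAK family bound to gp130 then phosphorylate STAT factors, chiefly STAT3, and STAT3 induces Socs3, whose protein docks on gp130 and blocks the kinases. SOCS1 inhibits JAK kinases directly, and CISH acts mainly on receptors that signal through STAT5. In microglia and macrophages, Toll-like receptor signals induce Il6 within hours, and the inhibitors limit the response to the cytokines that are made.

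LPS raised Il6, Osm and Socs3, and Il6ra fell. Il6 had no read in either control library and 89.7 and 103 normalised counts in the LPS libraries. Osm and Socs3 were 8.79-fold and 18.0-fold higher after LPS, and Il6ra stood at 37.9% of its control level. Il6st was lower in both LPS libraries but did not pass the test, Cish was detected in the LPS libraries alone at a level below the count filter, and Lif, Jak2 and Socs1 were listed at 0 in all 4 libraries. Of the 9 genes, 5 passed the count filter, and 3 of these were higher and 1 lower at an adjusted p below 0.05. Across all 6981 records tested, 5.53% were called, 3.82% as higher and 1.7% as lower. Il6 and Socs3 passed the count filter through the LPS libraries alone, so of the genes called higher only Osm also reached the filter in the control libraries. Over all records, 111 passed in this way and 62 of them were called higher.

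The promoters of Il6, Socs3 and Cish are shown because these genes gained reads after LPS and because motifs of NF-kB, C/EBP or STAT factors were found in them. RefSeq promoters of 300 bases on GRCm38.p6, the assembly behind mm10, were matched for 8 of the 9 genes, all but Osm, and were searched on both strands for TTCNNNGAA (STAT factors), GGGANNTTC (NF-kB), TTGCNNAA (C/EBP factors) and TGANTCA (AP-1). The sequences run 5′ to 3′ on the strand of the gene, from 250 bases before the start used in the RefSeq promoter table to 20 bases after it, and capitals mark the matches. In 7 of the 8 genes this start is the 5′ end of the RefSeq gene span, which is the span given with each gene in what follows. In Socs3 it lies 970 bases inside that span, so positions in the Socs3 promoter refer to this start alone. Il6 lies at chr5:30012864-30013133 on the plus strand, Socs3 at chr11:117969347-117969616 on the minus strand and Cish at chr9:107296409-107296678 on the plus strand.
Il6: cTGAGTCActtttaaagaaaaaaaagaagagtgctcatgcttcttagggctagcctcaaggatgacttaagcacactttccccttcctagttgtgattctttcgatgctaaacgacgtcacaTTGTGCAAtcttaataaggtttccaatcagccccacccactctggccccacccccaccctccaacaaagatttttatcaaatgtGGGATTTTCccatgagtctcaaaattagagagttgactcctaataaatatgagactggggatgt
Socs3: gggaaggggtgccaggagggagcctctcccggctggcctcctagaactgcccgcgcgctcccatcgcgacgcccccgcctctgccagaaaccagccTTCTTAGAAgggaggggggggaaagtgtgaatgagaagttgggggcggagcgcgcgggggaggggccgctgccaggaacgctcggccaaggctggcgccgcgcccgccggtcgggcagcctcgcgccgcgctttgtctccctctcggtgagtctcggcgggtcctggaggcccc
Cish: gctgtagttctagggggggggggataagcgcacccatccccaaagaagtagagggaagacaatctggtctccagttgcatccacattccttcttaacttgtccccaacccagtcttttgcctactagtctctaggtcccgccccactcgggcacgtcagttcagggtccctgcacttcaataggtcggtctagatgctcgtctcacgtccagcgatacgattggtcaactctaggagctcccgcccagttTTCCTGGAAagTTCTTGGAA

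In the Il6 promoter the NF-kB motif began 44 bases before the start, the C/EBP motif 128 bases and the AP-1 motif 249 bases before it, and no STAT motif was found. NF-kB and C/EBP proteins are known to bind and activate this promoter. Socs3 held 1 STAT motif, TTCTTAGAA, 154 bases before the start used in the table and within the annotated gene span, and none of the other motifs. Cish held 2 STAT motifs, TTCCTGGAA and TTCTTGGAA, which began at bases 1 and 12 of the transcript. These 2 genes were the only ones of the 8 with a STAT motif. Lif had 1 AP-1 motif, and Il6ra, Il6st, Jak2 and Socs1 had none of the 4. Among all 32851 promoters of the same length, 8.30% held the STAT motif, 3.94% the NF-kB motif, 10.8% the C/EBP motif and 7.81% the AP-1 motif. The letters were chosen with these promoters in view, and a match is a description of the sequence, not a bound site.

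Library totals ran from 3082538 to 3368693 counts in the LPS group and from 2778686 to 3059196 in the control group. The 5 most abundant records took 56.9% to 57.7% of counts in the LPS libraries and 53.4% to 67.5% in the control libraries. Replicates differed by more than counting error, with a chi-square per degree of freedom of 1.77 in the LPS pair and 6.50 in the control pair. The log2 ratio within the control pair went with GC content across records (Spearman's rho 0.664), more than in the LPS pair (0.268), where records are not independent replicates. Of 15 microglial and macrophage markers, 14 had counts, and their summed level was 4462 to 4556 normalised counts in LPS libraries and 3723 to 4545 in control libraries. Only 9 passed the count filter and 6 did not. Among the latter, 3 genes with 1 record each had few reads. P2ry12 had 1 and 0 reads in LPS libraries and 3 and 5 in controls. Aif1 had 4 and 3 against 3 and 7, and Cx3cr1 9 and 8 against 4 and 2. Csf1r averaged 441 ± 17.5 normalised counts after LPS and 512 ± 55.7 in controls (SD, n = 2 each), while Itgam, with 2 records, was listed at 0. Markers of astrocytes, oligodendrocytes, neurons, fibroblasts, T cells and B cells summed to at most 1.96 normalised counts per list in LPS libraries and 1.69 in control libraries.

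Among the cytokines, Il6 (NM_031168, chromosome 5, 30013114 to 30019975) encodes interleukin-6, an inducer of the acute-phase response. It had 97 and 105 reads in the LPS libraries, against 0 and 0 in the control libraries. In normalised counts these were 89.7 and 103 after LPS, a mean of 96.2 ± 9.20 (SD, n = 2), and 0 in both controls. There an expected count of up to 3 over the control group remains possible. Il6 passed the count filter through the LPS libraries alone. The groups did not overlap, as held for 21.4% of all records tested with LPS higher. The level after LPS was 60.7-fold a floor of 3 counts over the control group. The adjusted p of edgeR's quasi-likelihood test was 1.56e-05, and it was at most 4.63e-05 in each of 13 other settings. The bound of 60.7 leaves out counting error in the LPS reads and follows the depth of the controls. It was 38.1 without control replicate 1 and 22.7 without control replicate 2, while it was 65.5 without LPS replicate 1 and 57.0 without LPS replicate 2.

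Osm (NM_001013365, chromosome 11, 4236785 to 4241026) encodes oncostatin M, a cytokine that myeloid cells release on activation. It had 199 and 244 normalised counts in the LPS libraries, against 28.1 and 22.8 in the control libraries. Both LPS values lay well above both control values, and Osm, unlike Il6, had reads in every control library. Its log2 fold change was 3.14 (SE 0.261, edgeR adjusted p 2.00e-05) and ran from 2.96 to 3.28 over the other settings. Per kilobase of transcript, the 2 cytokines reached similar levels after LPS, with 84.3 ± 8.06 normalised counts for Il6 and 97.3 ± 13.9 for Osm (SD, n = 2 each). In controls the level per kilobase was 11.2 ± 1.66 for Osm, and Il6 had no read. Lif, the neighbour of Osm on chromosome 11 with 16541 bases between their annotated spans, encodes leukaemia inhibitory factor and was listed at 0 in all 4 libraries under both of its records.

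**Figure D1:**
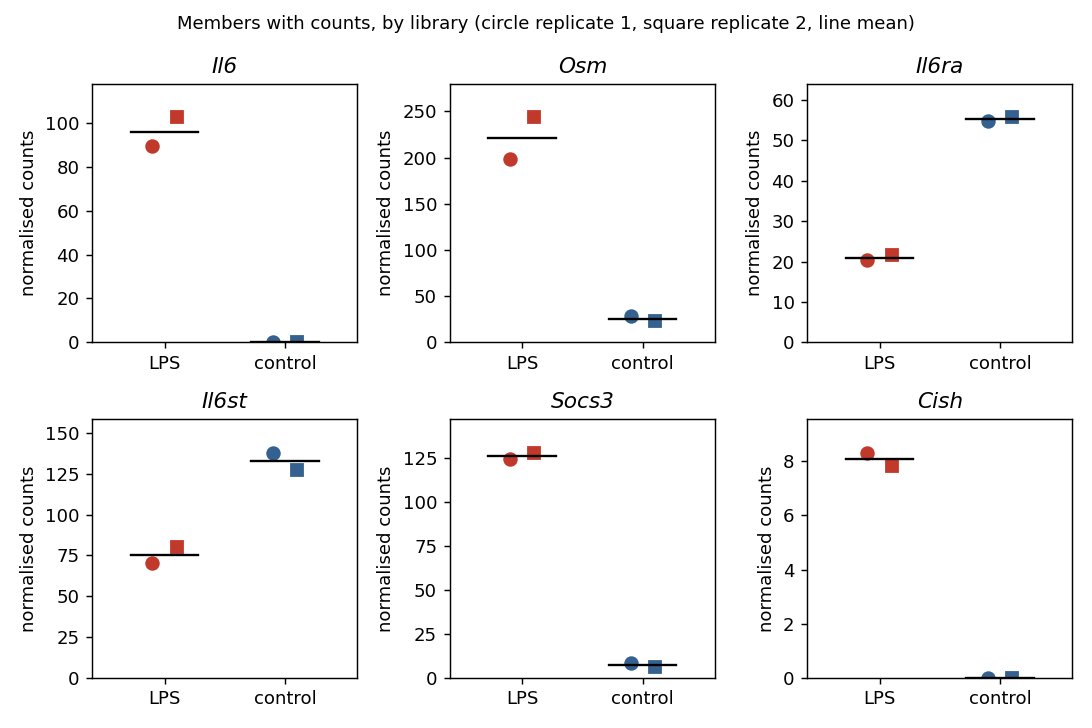
Normalised counts (linear vertical axes) of the 6 genes with reads, with the 2 LPS libraries left of the 2 control libraries in each panel. Circles are replicate 1, squares replicate 2 and lines group means. Il6 and Cish sat at 0 in both controls, Osm and Socs3 were far higher in both LPS libraries, and Il6ra and Il6st were lower in both.

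Of the receptor chains, Il6ra fell and Il6st did not pass the test. Il6ra (NM_010559, chromosome 3, 89869324 to 89913196) encodes the chain that binds interleukin-6, and restricts the direct response to cells that carry it. It had 20.3 and 21.5 normalised counts in the LPS libraries, against 54.9 and 55.7 in the control libraries. The reads behind these values were 22 and 22 after LPS and 39 and 66 in controls, so the control values came close only after scaling. The groups did not overlap, as held for 21.9% of all records tested with LPS lower. The log2 fold change was -1.40 (SE 0.292, edgeR adjusted p 0.0154). The call was lost in the DESeq2 Wald test (adjusted p 0.103), without LPS replicate 1 (0.182) and without LPS replicate 2 (0.145), while the fold change itself stayed between -1.43 and -1.34.

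Il6st (NM_010560, chromosome 13, 112464070 to 112506860) encodes gp130, the signalling chain of the whole family. It had 70.3 and 80.2 normalised counts in the LPS libraries, against 138 and 127 in the control libraries. The groups did not overlap, as held for 43.4% of all records tested, 21.9% with LPS lower. The log2 fold change was -0.81 (SE 0.223) and did not pass (edgeR adjusted p 0.0625). Over the 13 other settings the log2 fold change of Il6st ran from -0.91 to -0.71. In edgeR it passed under the replicate block (adjusted p 0.00879), with a trend on GC content and length removed (0.0166) and with both (0.00137). In DESeq2 it was far from passing (adjusted p 0.243). The log2 fold change was -0.75 without control replicate 1, -0.88 without control replicate 2, -0.71 without LPS replicate 1 and -0.91 without LPS replicate 2. Each of these 4 fits takes its spread from 1 pair alone. Per kilobase of transcript, Il6ra averaged 6.26 ± 0.249 normalised counts after LPS and 16.5 ± 0.179 in controls. Il6st averaged 8.67 ± 0.809 after LPS and 15.3 ± 0.848 in controls (SD, n = 2 each). The levels of the pair per kilobase thus lay close together in the controls, and below those of Il6 and Osm after LPS. Whether the changes of Il6ra and Il6st differ from each other was not tested. In these bulk samples, fewer cells with a transcript and less of it per cell cannot be told apart.

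**Figure D2:**
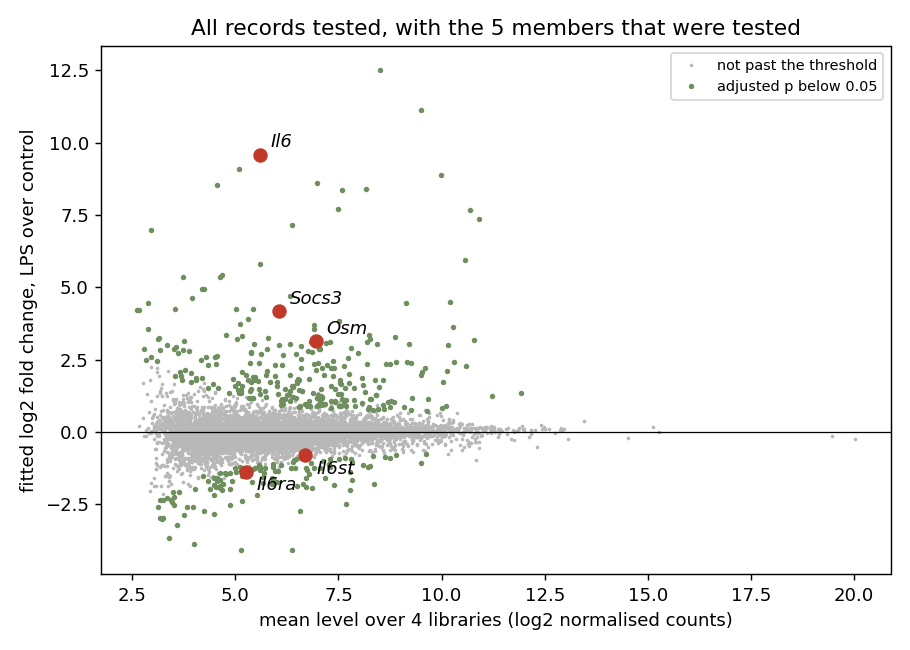
Fitted log2 fold change of LPS over control (vertical axis) against the mean level over the 4 libraries (horizontal axis, log2 normalised counts) for the 6981 records tested. Grey points did not pass, green points had an adjusted p below 0.05, and red points are the 5 genes of the pathway that were tested. Il6, at 0 in the controls, is drawn at a fitted value that depends on the prior count, Osm and Socs3 stand above the cloud, and Il6ra and Il6st lie at its lower edge.

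Of the inhibitors, Socs3 (NM_007707, chromosome 11, 117966079 to 117970336) was the one past the threshold. It had 125 and 128 normalised counts in the LPS libraries, against 8.44 and 5.91 in the control libraries. The LPS replicates were nearly equal, and each control library held only 6 or 7 reads of it. Socs3 thus passed the count filter through the LPS libraries alone. The log2 fold change was 4.17 (SE 0.329, edgeR adjusted p 1.45e-05), with a range of 3.88 to 4.40 over the other settings. Per kilobase it reached 49.6 ± 0.914 normalised counts after LPS, against 2.81 ± 0.701 in controls (SD, n = 2 each), so that its level after LPS was above that of either receptor chain, whereas in controls it was below both.

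Cish (NM_009895, chromosome 9, 107296659 to 107302784), the founding member of the SOCS family, had 9 and 8 reads in the LPS libraries, against 0 and 0 in the control libraries. Its normalised counts were 8.32 and 7.82 after LPS. It fell below the count filter and was not tested with the other records. Its level after LPS was 5.11-fold a floor of 3 counts over the control group. That figure leaves out counting error in the few LPS reads. Without control replicate 2 the figure was 1.91, and without control replicate 1 it was 3.21. With no filter on low counts, edgeR gave Cish an adjusted p of 0.00101. Per kilobase, Cish averaged 2.83 ± 0.123 normalised counts after LPS, against 49.6 for Socs3.

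Lif, Jak2 and Socs1 were listed at 0, and the table does not show whether they were expressed. Jak2 (chromosome 19) encodes a kinase bound to gp130, and Socs1 (chromosome 16) an inhibitor of JAK kinases. The 6 genes with reads each had 1 record in the table, and the 3 genes at 0 each had 2. Among all coding genes, 46.7% of 15853 genes with 1 record reached at least 10 counts over the 4 libraries, against 15.4% of 2514 genes with 2 records. With 3 records the share was 12.5%, and with 4 or more it was 10.6%. Sums over all records of a gene changed this little, with 16.7% for genes with 2 records.

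The records of these 3 genes are also nearly alike in sequence. Of the 101-base windows of each record, the length of a sequenced read, the share not held by the other record was 2.02% and 3.67% for Jak2, 0.568% and 6.34% for Lif, and 3.61% and 7.83% for Socs1, in GENCODE transcripts matched by accession. Among 905 coding genes with 2 records and a largest such share under 10%, 4.42% reached 10 counts, against 35.4% of 359 genes with a share of 60% or more. How reads that fit several records were counted is not given in the sources used here, and the part of this in the zeros of Lif, Jak2 and Socs1 was not tested.

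**Figure D3:**
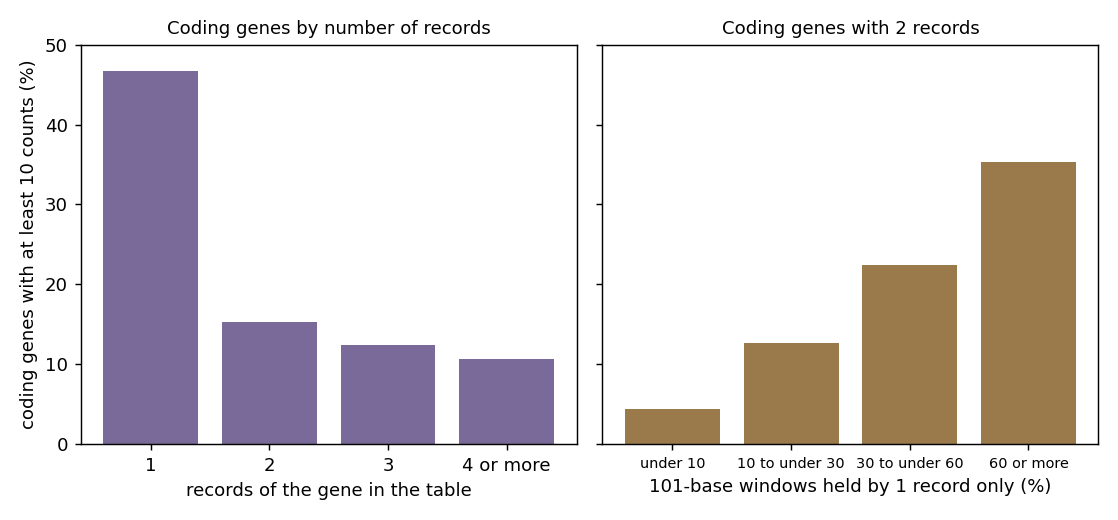
Percent of coding genes with at least 10 counts over the 4 libraries (vertical axes, from 0). The left bars group all coding genes by the number of records in the table and fall from 46.7% for 1 record to 10.6% for 4 or more. The right bars take genes with 2 records, grouped by the percent of 101-base windows held by 1 record only (the larger of the 2), and run from 4.42% to 35.4%.

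The wider pathway was followed with 65 more genes, of which 29 passed the count filter, 12 were higher, none was lower and 17 did not pass. Across all records tested, 3.82% were called higher and 1.7% lower, so a count of 0 lower among 29 genes is near that share. Of the 12, 2 passed the count filter through the LPS libraries alone. Without such records, 10 of 27 genes were higher, against 2.98% of 6870 records. The lists were chosen with earlier results of these data known. The count of lower genes was 0 in edgeR, in DESeq2 and in limma-voom, and 0 at an unadjusted p below 0.05 in edgeR. Of the 36 genes not tested, 22 had several records, among them Stat3, Tyk2, Ptpn11 and Cebpb, and of 24 genes with several records only 2 were tested. Genes with 1 record that were listed at 0 were Clcf1, Ctf1, Il31, Osmr, Il31ra, Stat4 and Fgl2. For each of them an expected count of up to 3 over each group of 2 libraries remains possible. Osmr encodes the receptor chain that binds oncostatin M together with gp130, and thus had no read in libraries where its ligand gene was higher.

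None of the 8 other ligand genes of the family was tested, and Il27, Ebi3 and Cntf had reads in both LPS libraries. Cntf, which encodes ciliary neurotrophic factor, had only 1 and 2 reads in the LPS libraries, against 1 and 0 in the control libraries. Il27 encodes one subunit of interleukin-27 and Ebi3 the other. Il27 had 9.25 and 7.82 normalised counts in the LPS libraries and none in the control libraries. This was 5.41-fold a floor of 3 counts over the control group, with counting error in the LPS reads left out. Ebi3 had 13.9 and 4.89 normalised counts after LPS, against 0 and 0.844 in controls, a rate ratio of 18.0 with an exact 95% interval of 2.88 to 747 that covers counting error only. The values of Il27 and Ebi3 rest on few reads, and the LPS replicates of Ebi3 differed by more than those of Il27.

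Of the receptor chain, protease, Janus kinase and STAT genes, 4 were tested and 0 were called in edgeR, DESeq2 or limma-voom, with 1, Stat2, at an unadjusted p below 0.05 in edgeR. Over all records tested, edgeR called 5.53%, so 0 of 4 is near that share and does not show that these genes were unchanged. Jak1, the kinase most needed for gp130 signalling, had 118 and 127 normalised counts in the LPS libraries, against 115 and 157 in the control libraries (log2 fold change -0.16, edgeR adjusted p 0.867). The ranges overlap. Stat6, the most abundant STAT gene measured, had a log2 fold change of -0.12 (adjusted p 0.877). Stat2, a factor of interferon signalling, averaged 27.5 ± 1.59 normalised counts after LPS and 13.4 ± 0.994 in controls (SD, n = 2 each) and did not pass in edgeR (log2 fold change 1.05, adjusted p 0.154). Adam10, a protease that can shed the interleukin-6 receptor, had 208 and 202 normalised counts after LPS, against 125 and 233 in controls, with a log2 fold change of 0.17 (adjusted p 0.882).

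Among the other SOCS genes, none of those tested was called, and Socs2, with 4 records, was not tested. Of 5 genes, 4 were tested and 0 were called in edgeR, DESeq2 or limma-voom, or at an unadjusted p below 0.05 in edgeR, with log2 fold changes of -0.49 for Socs6, -0.14 for Socs5, 0.01 for Socs4 and 0.37 for Socs7. Their adjusted p in edgeR ran from 0.426 to 0.996. As edgeR called 5.53% of all records tested, 0 of these 4 genes is near that share. Socs7, the most abundant of them, had 171 and 143 normalised counts in the LPS libraries, against 129 and 114 in the control libraries. Whether these changes differ from that of Socs3 was not tested. For phosphatases and PIAS proteins, the count past the threshold was 0 of 5 tested genes in edgeR and also by DESeq2 and by limma-voom, and 0 at an unadjusted p below 0.05 in edgeR. This count, too, is near the 5.53% of all records called in edgeR. Ptpn1, a tyrosine phosphatase that acts on JAK kinases, averaged 318 ± 8.58 normalised counts after LPS and 262 ± 72.6 in controls (SD, n = 2 each, edgeR adjusted p 0.662).

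Genes known as STAT3 targets were higher in 8 of 11 tested cases out of 18 listed, against 3.82% of all records tested, and in 7 by DESeq2. None was lower, with a count of 0 in edgeR, DESeq2 and limma-voom, and 0 at an unadjusted p below 0.05 in edgeR. Of the 8, Lcn2 and Bcl3 passed the count filter through the LPS libraries alone. Without such records, 6 of 9 targets were higher, with a median log2 fold change of 1.95, against 2.98% of 6870 records higher and a median of -0.02. Many of the listed targets are also targets of NF-kB. The list was chosen with earlier results of these data known, so its share beside that of all records only describes the genes listed. Pim1, a survival kinase gene, had 239 and 202 normalised counts in the LPS libraries, against 22.5 and 16.0 in the control libraries, a log2 fold change of 3.55 (edgeR adjusted p 1.40e-05). Cebpd, a transcription factor gene that also acts on Il6, rose by 2.88 on the log2 scale, Icam1, an adhesion molecule gene, by 2.42 and Junb by 1.95. Mcl1, an inhibitor of cell death, rose by 0.88. Saa3, an acute-phase gene, rose by 7.65, and Lcn2, a siderophore-binding protein gene, had 1 control read and a rate ratio of 478 with an exact 95% interval of 85.5 to 18932. Its fitted log2 fold change depended on which control library was used, and was 11.1 without control replicate 1 and 7.36 without control replicate 2. Bcl3, an atypical IkB gene, had 3 control reads and a rate ratio of 10.2 (interval 3.21 to 52.0). Hif1a, the most abundant target that did not pass, had a log2 fold change of 0.92 (adjusted p 0.0733). In edgeR, Mcl1 lost its call without LPS replicate 1 (adjusted p 0.365) and without LPS replicate 2 (0.323), and Bcl3 without LPS replicate 2 (0.149). Bcl3 also lost it in the DESeq2 Wald test (adjusted p 0.107).

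Genes that regulate Il6 were higher in 5 of 6 tested cases out of 9 listed, against 3.82% of all records tested, and in 4 by DESeq2. This list, too, was chosen with earlier results of these data known, and its share only describes the genes listed. Zc3h12a encodes Regnase-1, a nuclease that degrades the Il6 transcript. It had 165 and 175 normalised counts in the LPS libraries, against 23.9 and 20.3 in the control libraries (log2 fold change 2.96, edgeR adjusted p 2.66e-05). Zfp36, which encodes the decay factor tristetraprolin, rose by 1.93 on the log2 scale. Nfkb1 and Rel, which encode NF-kB subunits, rose by 1.55 and 1.58, and Cebpd is the fifth. Rel lost its call without LPS replicate 2 (adjusted p 0.129) and in the DESeq2 Wald test (0.0989), and its log2 fold change was 2.27 without control replicate 2 and 1.25 without control replicate 1. Genes of activation and of decay of the Il6 transcript were thus both higher at 4 h. Rc3h1, which encodes the RNA-binding protein Roquin-1, was the one that did not pass (log2 fold change 0.93, adjusted p 0.120).

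**Figure D4:**
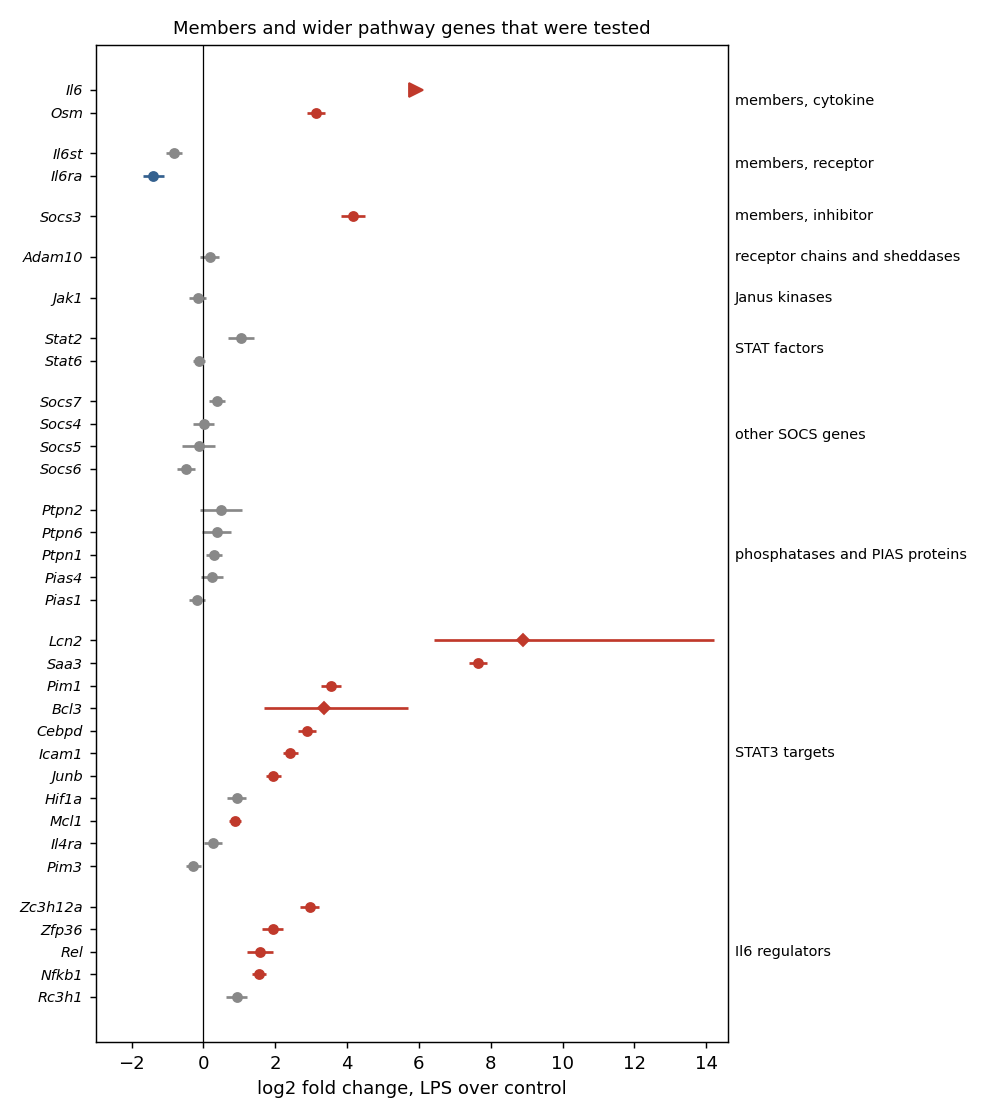
Log2 fold change of LPS over control (horizontal axis) for the tested genes, grouped by role. Circles are edgeR fits with the standard error, and diamonds are rate ratios with exact 95% intervals for genes with 1 to 3 control reads. The triangle is the bound for Il6 against a floor of 3 control counts. Red marks genes called higher, blue lower and grey not past the threshold. Calls lie among the cytokines, Socs3, Il6ra, the STAT3 targets and the Il6 regulators.

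The genes with the most similar pattern over the 4 libraries were sought for the 4 called genes, by the root mean square distance of centred log2 CPM values. Nearest to Il6 were Ptgs2, the inducible cyclooxygenase gene (distance 0.193), Nos2, the inducible nitric oxide synthase gene (0.252) and Id3 (0.360). Because Il6 had no control read, its centred values are set by the prior count of 2, and these distances and their order hold for that prior count alone. Ptgs2 had 42.2 and 54.0 normalised counts in the control libraries, where Il6 had none. Nearest to Socs3 were Rtp4 (0.131), Cdc42ep2 (0.137) and Tnfaip2 (0.170), and nearest to Osm were Irak3 (0.0894), Pilrb2 (0.107) and Slfn2 (0.118). For Il6ra these were Afap1l1 (0.0335), Eepd1 (0.0563) and Syne1 (0.0813). Rtp4 and Cdc42ep2 each had only 1.41 and 0.844 normalised counts in the control libraries, so their distances also lean on the prior count. Their fitted log2 fold changes were 5.36 and 5.42, against 4.17 for Socs3. With 2 groups of 2 libraries, such a pattern is in the main the size of 1 difference.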

How the data were processed

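RNA-seq of 2 LPS and 2 control libraries of BV-2 cells was used, grouped by sample title. The table the authors deposited gives whole-number counts of reads for each RefSeq transcript record. Although the file is called normalised, the column totals differ and no whole number from 1 to 228 is missing from any column, so the values were taken as raw counts. The submitters' processing notes list TopHat2 2.0.10, HTSeq 0.6.1, Cufflinks 2.2.1, Trimmomatic 0.33, CASAVA 1.8.2 and mm10. What each tool did, the annotation release and the strand setting are not stated there. RefSeq tables of GRCm38.p6 gave a symbol to 32483 of 32915 records.

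Low records were removed with edgeR's filterByExpr (minimum count 10), leaving 6981. The test was the quasi-likelihood F test of edgeR 4.0.16 in R 4.3.3, LPS over control, with TMM scaling, no covariates and Benjamini-Hochberg adjustment over all records, at 0.05. Normalised counts were scaled to the mean effective library size of 3108147. Standard errors are the fold change divided by the root of F. The fit was tested on simulated data. Alternatives used limma 3.58.1 and DESeq2 1.42.0, among others. Per-kilobase levels use GENCODE transcript lengths. The genes named were all 9 members, each wider pathway gene past the threshold and the most abundant gene of each group that did not pass. Other genes named among the untested, the markers and the SOCS and STAT genes were added after their values were seen. The members and lists were chosen with earlier results of these data known. Intervals cover counting error only, since no molecular identifiers are described.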

Additional observations from a re-analysis of the deposited data

How the results depend on the processing

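Over 13 other settings, Il6, Osm and Socs3 stayed higher, and they were past the threshold in each fit that kept all 4 libraries. These settings reuse the same libraries, and Il6 and Socs3 had passed the count filter through the LPS libraries alone, unlike Osm. Il6ra stayed lower and lost its call in 3 settings (log2 fold change -1.40 in the DESeq2 Wald test, and -1.43 to -1.34 over the fits without 1 library). Il6st was lower throughout, with -0.91 to -0.71 without 1 library. It passed under the replicate block (-0.81), with the GC and length trend removed (-0.71) and with both (-0.71). The lower count of members was thus 0 in DESeq2, and 2 under the block, with the trend removed and with both. Cish, untested with the filter, passed without it (5.21-fold against the floor of 3 control counts). The bound of Il6 ran from 22.7 to 65.5, both ends from fits without 1 library. Pathway genes higher ran from 10 to 17, against 12, and lower were 1 with the block and trend and 0 to 1 without 1 library. Of the 12 called, 9 kept the call in all settings.

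All records gave 267 higher and 119 lower, against 209 lower without a filter, 66 lower in DESeq2, 401 and 288 with the replicate block, 470 and 262 with the trend removed, 627 and 458 with both, and 165 to 723 higher and 39 to 581 lower without 1 library. A fit without an LPS library takes its spread from the control pair, which differed more. A fit without a control library takes it from the LPS pair, which differed less, and gave more calls over all records. The share of calls that were higher was 69.2% in edgeR, 58.2% with the block, 57.8% with block and trend, and 55.4% to 80.9% without 1 library. The deviations of same-numbered libraries correlated at 0.255, but the labels do not tie the numbers to a batch, so the libraries share only a number. Depth limits Cish, Il27 and Ebi3, which had few reads, and genes with several near-identical records were seldom counted. The cause of the other shifts was not tested.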

Other observations

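Several widely expressed genes with more than 1 record were listed at or near 0. Gapdh, a housekeeping gene with 2 records, had 10 and 9 reads over both records in the LPS libraries and 3 and 8 in the control libraries, and the pathway genes Stat3, Ptpn11, Cebpb, Nfkbiz and Vegfa, with several records each, were listed at 0 for their most abundant record. The share of coding genes with 2 records that reached 10 counts was 4.42%, 12.6%, 22.4% and 35.4% where the windows held by 1 record only made up under 10%, 10% to under 30%, 30% to under 60% and 60% or more. Spi1, which encodes the myeloid factor PU.1, was the 1 microglial marker of 9 tested that was called, with 1125 normalised counts after LPS and 509 in controls (edgeR adjusted p 0.00391).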
